A study of Mus musculus with 4 samples.

Results

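N6-methyladenosine (m6A) is a methyl mark on adenosines inside messenger RNA. Writer proteins place it, eraser proteins take it off, and reader proteins with a YTH domain bind it and steer the RNA to splicing, export, translation or decay. A growing oocyte stores RNA made before it falls silent, and loss of several of these proteins in mice is known to disturb oocyte growth, meiosis or the clearing of maternal RNA. Here 10 genes of this machinery were followed through follicular growth: the writer subunits Mettl3, Mettl14 and Wtap, the readers Ythdc1, Ythdc2, Ythdf1, Ythdf2 and Ythdf3, and the erasers Alkbh5 and Fto. They were chosen by name from the 25587 genes with RNA-Seq values, and all 10 were found, each listed once.

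RNA was sequenced from wild-type C57BL/6Babr oocytes as 4 libraries, 1 per stage: non-growing oocytes (NGOs, mice of 5 days), growing oocytes from mice of 8 to 14 days (GO1) and of 15 days (GO2), and fully grown oocytes at the germinal vesicle stage (FGOs, mice of 20 days). Each library pooled the oocytes of many females after depletion of ribosomal RNA. A dUTP protocol was used for NGOs and FGOs, and ScriptSeq v2 reagents for both growing stages, so that stage and protocol cannot be told apart between those pairs. Changes were therefore taken within each protocol, as FGOs over NGOs and as GO2 over GO1, and levels in other pairings are only set side by side.

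No stage has a second library, so no test between stages was possible and no p value is given. Levels are the deposited RPKM values (reads per kilobase of exon and per set number of reads in the library). Whole counts recovered from them gave exact 95 % Poisson intervals, which cover counting error only, since the reads carry no molecular identifiers and so do not count independent molecules. The totals behind the values ran from 110595000 in NGOs to 241386000 in GO2, and every one of the 10 genes had at least 601 counts in every library. In every library the counts recovered on genes (64014733 in NGOs) exceeded the uniquely mapped reads that the study lists. These counts thus cannot all be independent reads, and the intervals are too narrow. RPKM is relative to the RNA of the whole library, so less RNA of a gene per oocyte and fewer oocytes carrying it cannot be told apart, and nor can a change in amount per oocyte from a change in all other RNA.

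The 11 oocyte markers (such as Zp2, Zp3 and Gdf9, which encode egg coat proteins and a secreted growth factor) summed to between 4975 and 7259 RPKM per library, with none at 0. The sum was highest in NGOs, and so were 7 of the 11 (Zp1, Zp2, Zp3, Gdf9, Figla, Nobox and Kit). Ddx4 and Dppa3 were highest in GO1, Bmp15 in GO2 and Oosp1 in FGOs. The 8 granulosa cell markers had sums of 2.46 RPKM in NGOs and 10.2 in FGOs, of which 6.08 came from Cyp19a1, with 2.43 and 5.01 in GO1 and GO2. The 8 stroma and theca markers summed to 5.55 RPKM in NGOs and to between 0.312 and 0.676 in the other libraries, with Col1a1 at 2.24 in NGOs and Cyp17a1 at 0 in FGOs. The 5 blood markers summed to 1.94 in NGOs and to at most 0.599 elsewhere, with 3 of them at 0 in GO1 and in FGOs and 1 in GO2. The sums for stroma and blood were thus highest in NGOs and that for granulosa cells in FGOs. Single markers were mixed: all 5 blood and 5 of 8 stroma and theca markers were highest in NGOs (not Cyp11a1, Cyp17a1 or Star), and 5 of 8 granulosa cell markers in FGOs, with Foxl2, Inhba and Fst highest in NGOs. Their part in the results on the m6A genes was not tested.

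Ythdf1, Ythdf2 and Ythdf3 encode close relatives, so the stretch of their coding sequence in which they are most alike is shown first, since near-identical genes would share reads. Over 60 bases (GENCODE M21 on GRCm38, written along the transcript), capitals mark positions where the 3 genes are not all the same. The Ythdf1 stretch lies at chr2:180911117-180911176 on the minus strand, that of Ythdf2 at chr4:132204562-132204621 on the minus strand and that of Ythdf3 at chr3:16204935-16204994 on the plus strand, each an unbroken stretch of the genome.
Ythdf1: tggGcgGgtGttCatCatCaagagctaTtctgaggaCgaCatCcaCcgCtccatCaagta
Ythdf2: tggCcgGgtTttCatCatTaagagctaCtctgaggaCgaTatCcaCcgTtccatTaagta
Ythdf3: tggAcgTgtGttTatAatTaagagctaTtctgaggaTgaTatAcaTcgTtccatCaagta
Here 47 of the 60 bases were shared by all 3 genes. The longest run shared by all 3 coding sequences was 13 bases. Identity over the aligned coding bases was 67.8 % between Ythdf1 and Ythdf2, 69.4 % between Ythdf1 and Ythdf3 and 69.4 % between Ythdf2 and Ythdf3. No stretch of 100 bases, the read length, from the protein-coding transcripts of Ythdf1 or Ythdf3 occurred on either strand in a transcript of another gene. For Ythdf2 it was 58 of 4224 such windows, found in Gm6823 and Gm8401.

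Among the other genes, no window of Mettl14, Ythdc2 or Alkbh5 was shared with another gene. The shares were 1.61 % for Fto, 2.75 % for Wtap (with Gm14292), 7.82 % for Mettl3 and 15.8 % for Ythdc1 (with Gm43055). The windows of Mettl3 were shared with Tox4, a gene on the opposite strand that overlaps it by 1724 bases and had between 2.36 and 3.52 RPKM. Mettl14 and Sec24d, also on opposite strands, overlap by 991 bases, and Sec24d had between 2.77 and 4.66 RPKM. The strand setting used for the counting is not given in the sources used here, so reads in these overlaps cannot be assigned with certainty. Fto overlaps Gm3235 on the opposite strand, which was listed at 0 in every library.

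All 10 genes were read in every library, across a span from less than 1 to more than 50 RPKM. Alkbh5, Ythdf2 and Wtap stood at the top in every stage, and Fto was last in every stage. Against the genes with at least 3 counts in a library, 9 of the 10 lay above the median in each of the 4 libraries, and the exception was Fto. The median of such genes was 2.07 RPKM in NGOs and 1.95 in FGOs, and 1.55 in GO1 and 1.28 in GO2. Mettl14 was close to it in NGOs, at percentile 50.7. By protocol, 5 genes (Mettl14, Ythdc1, Ythdc2, Ythdf2 and Ythdf3) were higher in both ScriptSeq than in both dUTP libraries. Lower in both were 3 (Mettl3, Alkbh5 and Fto), and Wtap and Ythdf1 were mixed. The share of all genes that divide in this way was not computed, so these counts show nothing particular to the m6A genes. The plot of levels by library shows the order of the genes and the narrow counting intervals. The share of the summed RPKM of the 10 genes that came from the 3 writers was 19.5 % in NGOs against 24.7 % in FGOs, and 23.2 % in GO1 against 24.1 % in GO2. For the 5 readers it was 48.1 % in NGOs against 44.4 % in FGOs, and 55.4 % in GO1 against 52.4 % in GO2. The 2 erasers gave 32.4 % in NGOs against 31.0 % in FGOs, and 21.4 % in GO1 against 23.6 % in GO2. Readers were the largest class in every library, and the eraser share, nearly all of it Alkbh5, was higher in both dUTP libraries than in both ScriptSeq libraries. Most of the writer sum came from Wtap (19.7 of 31.8 RPKM in NGOs and 33.2 of 42.8 in FGOs). Mettl3 was lower in FGOs than in NGOs, and Mettl14 was higher.

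**Figure D1:**
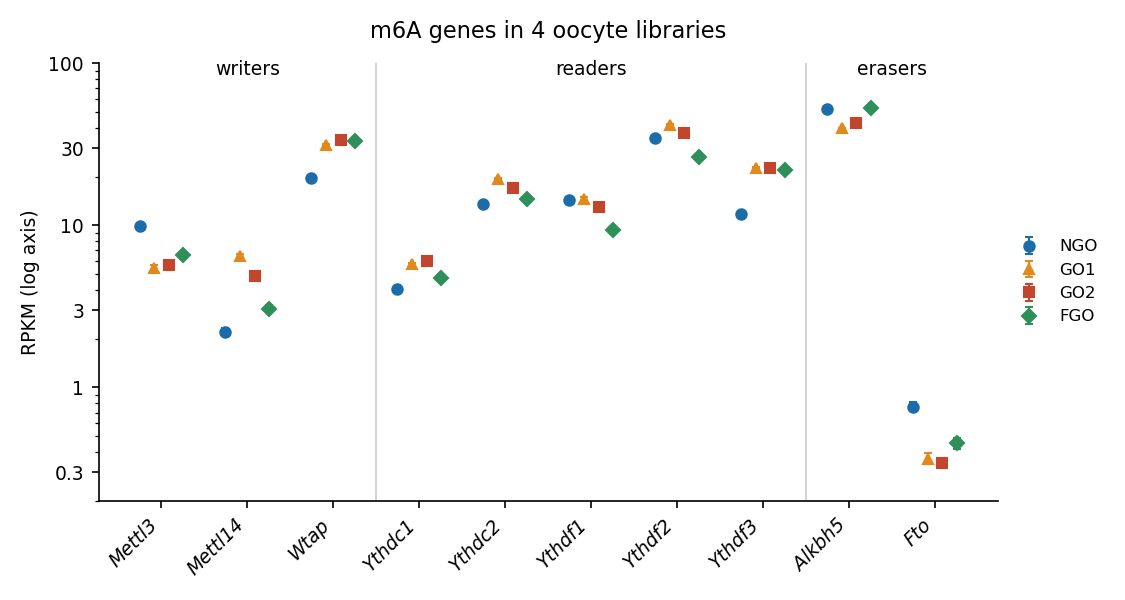
RPKM (log axis) of the 10 m6A genes in the NGO, GO1, GO2 and FGO libraries, 1 point per library, with 95 % Poisson counting intervals that are mostly hidden by the points. Alkbh5 sits between 39.6 and 53.3 RPKM, and Fto, the lowest gene in every library, between 0.341 and 0.761.

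The writers differed from each other in both level and course. METTL3 is the subunit that carries out the methyl transfer. Mettl3 (chromosome 14, 52294668 to 52305128, minus strand) had RPKM values of 9.93 (9.63 to 10.2) in NGOs against 6.54 (6.31 to 6.77) in FGOs, and 5.45 (5.25 to 5.66) in GO1 against 5.71 (5.56 to 5.87) in GO2. The NGO library was highest, with an interval apart from those of the other 3.

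METTL14 is the partner that holds METTL3 on RNA and has no catalytic activity of its own. Mettl14 (chromosome 3, 123364645 to 123385990, minus strand) had RPKM values of 2.18 (2.06 to 2.31) in NGOs against 3.07 (2.93 to 3.21) in FGOs, and 6.47 (6.27 to 6.67) in GO1 against 4.85 (4.72 to 4.97) in GO2. Both ScriptSeq libraries were above both dUTP libraries, and the highest value was 2.96 times the lowest, the widest span of the 10 genes.

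WTAP is the adaptor that joins the METTL3 and METTL14 pair to the rest of the writer complex. Wtap (chromosome 17, 12966796 to 12992546, minus strand) had RPKM values of 19.7 (19.3 to 20.0) in NGOs against 33.2 (32.8 to 33.6) in FGOs, and 31.5 (31.1 to 31.9) in GO1 against 33.4 (33.1 to 33.7) in GO2. It was lowest in NGOs and lay within 31.5 and 33.4 in the 3 later libraries, with overlapping intervals in GO2 and FGOs. In every library Wtap exceeded the summed RPKM of Mettl3 and Mettl14.

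Because Mettl3 and Wtap lay at opposite ends among the writers between NGOs and FGOs, their promoters are shown side by side, as the 300 bases around the RefSeq start nearest to the listed 5′ end (GRCm38.p6, written along the transcript). Capitals mark CG dinucleotides. The Mettl3 promoter is chr14:52305075-52305374 and the Wtap promoter chr17:12992494-12992793, both on the minus strand.
Mettl3: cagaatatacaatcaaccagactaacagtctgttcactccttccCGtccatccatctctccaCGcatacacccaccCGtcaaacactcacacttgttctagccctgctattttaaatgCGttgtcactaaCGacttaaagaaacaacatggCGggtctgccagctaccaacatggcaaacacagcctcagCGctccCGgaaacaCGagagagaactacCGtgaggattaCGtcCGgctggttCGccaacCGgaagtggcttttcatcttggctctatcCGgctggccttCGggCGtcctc
Wtap: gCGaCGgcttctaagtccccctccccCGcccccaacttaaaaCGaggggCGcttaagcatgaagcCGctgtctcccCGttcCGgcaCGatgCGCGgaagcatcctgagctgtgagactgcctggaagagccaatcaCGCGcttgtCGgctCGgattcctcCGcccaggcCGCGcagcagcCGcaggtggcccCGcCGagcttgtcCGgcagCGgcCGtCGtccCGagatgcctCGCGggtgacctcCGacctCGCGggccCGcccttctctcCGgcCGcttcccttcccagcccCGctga
The Mettl3 promoter held 17 CG dinucleotides with a GC content of 52.0 %, and the Wtap promoter held 35 with 69.3 %. Over 32851 RefSeq promoters of this length the median was 7 (quartiles 3 and 20), so that Mettl3 was at percentile 69.4 and Wtap at 93.4. Of the 10 genes, 7 have a promoter in that table (not Mettl14, Ythdc2 or Ythdf3), and their CG counts ran from 17 in Mettl3 to 37 in Ythdf1, which puts all 7 above the median. The promoter of Alkbh5 is 1302 bases from the 5′ end listed for that gene, and the others are within 47 bases. On either strand, TATAAA, which 13.6 % of all promoters hold, was in none of the 7, and CCAAT, held by 37.4 %, was in those of Wtap, Ythdf1 and Alkbh5. CACGTG, held by 7.15 %, was in that of Ythdf1 alone. From which start the transcripts came is not shown by values per gene.

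YTHDC1 is the nuclear reader and takes part in splicing, polyadenylation and export of methylated RNA. Ythdc1 (chromosome 5, 86804221 to 86836659, plus strand) had RPKM values of 4.06 (3.94 to 4.18) in NGOs against 4.70 (4.58 to 4.83) in FGOs, and 5.74 (5.61 to 5.87) in GO1 against 6.04 (5.94 to 6.13) in GO2. It was the lowest of the 5 readers in every library.

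YTHDC2 is an RNA helicase needed for the switch from mitosis to meiosis in germ cells. Ythdc2 (chromosome 18, 44828665 to 44889720, plus strand) had RPKM values of 13.6 (13.4 to 13.9) in NGOs against 14.6 (14.3 to 14.8) in FGOs, and 19.3 (18.9 to 19.6) in GO1 against 16.9 (16.7 to 17.2) in GO2. Both ScriptSeq libraries were above both dUTP libraries, and the highest value (GO1) was 1.41 times the lowest (NGOs), a span across protocols.

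The YTHDF proteins are the cytoplasmic readers, of which YTHDF2 recruits the CCR4-NOT deadenylase and is the one whose loss in mouse oocytes leaves maternal transcripts in place. Ythdf2 (chromosome 4, 132184912 to 132212303, minus strand) had RPKM values of 34.7 (34.2 to 35.2) in NGOs against 26.2 (25.8 to 26.7) in FGOs, and 41.4 (40.9 to 42.0) in GO1 against 37.2 (36.9 to 37.6) in GO2. It was the highest reader in every library, and FGOs held its lowest value.

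Ythdf1 (chromosome 2, 180904377 to 180920949, minus strand) had RPKM values of 14.3 (13.9 to 14.7) in NGOs against 9.37 (9.07 to 9.68) in FGOs, and 14.5 (14.2 to 14.9) in GO1 against 13.0 (12.7 to 13.2) in GO2. Its NGO and GO1 intervals overlapped, and FGOs were again lowest. Ythdf3 (chromosome 3, 16183183 to 16217035, plus strand) had RPKM values of 11.8 (11.5 to 12.04) in NGOs against 22.1 (21.7 to 22.5) in FGOs, and 22.5 (22.1 to 22.8) in GO1 against 22.5 (22.3 to 22.8) in GO2. Unlike its relatives it was lowest in NGOs, and its intervals in the 3 later libraries overlapped.

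The make-up of the Ythdf pool therefore differed between the libraries. The share of Ythdf3 in the summed Ythdf RPKM was 19.4 % in NGOs against 38.3 % in FGOs, and 28.7 % in GO1 against 31.0 % in GO2. For Ythdf2 it was 57.1 % in NGOs against 45.5 % in FGOs, and 52.8 % in GO1 against 51.2 % in GO2, and Ythdf2 was the largest part in each library. Ythdf1 gave 23.5 % in NGOs against 16.2 % in FGOs, and 18.5 % in GO1 against 17.8 % in GO2. The stacked plot of Ythdf shares shows these values.

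**Figure D2:**
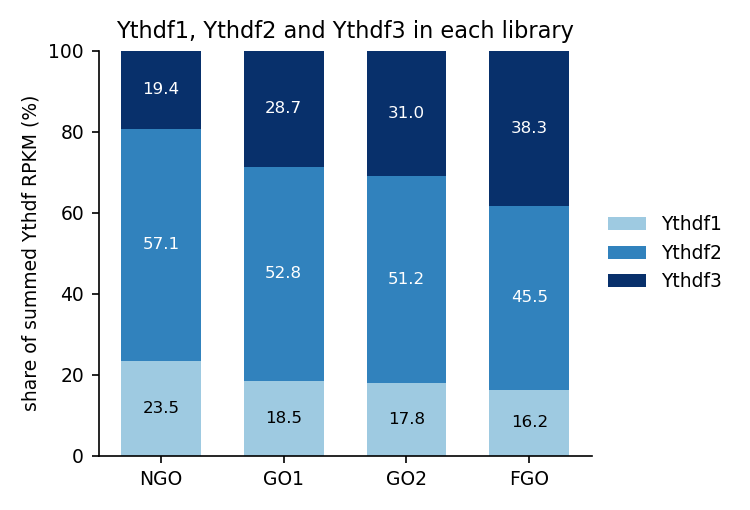
Share of the summed RPKM of Ythdf1, Ythdf2 and Ythdf3 (percent, y axis) that each gene took in the NGO, GO1, GO2 and FGO libraries (x axis), 1 library per bar. The Ythdf3 part is 19.4 % in NGOs and 38.3 % in FGOs, and the Ythdf2 part 57.1 % and 45.5 %.

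ALKBH5 and FTO both remove methyl groups from RNA, ALKBH5 from m6A and FTO also from the related mark next to the cap. Alkbh5 (chromosome 11, 60536381 to 60558512, plus strand) had RPKM values of 52.0 (51.4 to 52.5) in NGOs against 53.3 (52.7 to 53.8) in FGOs, and 39.6 (39.2 to 40.1) in GO1 against 42.8 (42.5 to 43.1) in GO2. Both dUTP libraries lay above both ScriptSeq libraries. Its highest value was 1.34 times its lowest, the narrowest span of the 10 genes, and it stood at percentile 95.7 to 96.9 of the genes with at least 3 counts.

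Fto (chromosome 8, 91313532 to 91668439, plus strand) had RPKM values of 0.761 (0.717 to 0.808) in NGOs against 0.452 (0.419 to 0.486) in FGOs, and 0.364 (0.335 to 0.394) in GO1 against 0.341 (0.321 to 0.362) in GO2. The NGO library was highest, as it was for Mettl3, and the GO1 and GO2 intervals overlapped. That library also had the highest sums of stroma and blood markers, and a link of these to either gene was not tested. The ratio of Alkbh5 to Fto RPKM was 68.3 (64.3 to 72.5) in NGOs against 118 (109 to 127) in FGOs, and 109 (100.4 to 118) in GO1 against 126 (118 to 133) in GO2.

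In order of level per length, the genes of NGOs ran Alkbh5, Ythdf2, Wtap, Ythdf1, Ythdc2, Ythdf3, Mettl3, Ythdc1, Mettl14 and Fto. FGOs gave Alkbh5, Wtap, Ythdf2, Ythdf3, Ythdc2, Ythdf1, Mettl3, Ythdc1, Mettl14 and Fto. GO2 had Alkbh5, Ythdf2, Wtap, Ythdf3, Ythdc2, Ythdf1, Ythdc1, Mettl3, Mettl14 and Fto. In GO1, Ythdf2 led before Alkbh5, and Mettl14 stood seventh, ahead of Ythdc1 and Mettl3. Of the neighbours in these orders, Ythdf1 and Ythdc2 in NGOs and Ythdc1 and Mettl3 in GO1 had overlapping intervals. With counts divided by 4, Ythdf2 and Alkbh5 in GO1 and Ythdc1 and Mettl3 in GO2 also overlapped.

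Between NGOs and FGOs, the ends of oocyte growth, none of the 10 genes differed by 2-fold, whereas 34.5 % of 15270 genes (those reaching 20 counts over both libraries) did (18 % higher and 16.5 % lower in FGOs). A change is given here as the log2 ratio of recovered counts, scaled with a trimmed mean, and with its 95 % counting interval. Ythdf3 had the largest, at 0.98 (0.94 to 1.02), a 1.97-fold higher count in FGOs whose interval includes the 2-fold line. Wtap followed at 0.82 (0.79 to 0.86) and Mettl14 at 0.56 (0.45 to 0.66).

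The counts lower in FGOs were those of Fto at -0.68 (-0.82 to -0.55), Ythdf1 at -0.54 (-0.60 to -0.48), Mettl3 at -0.53 (-0.60 to -0.47) and Ythdf2 at -0.33 (-0.36 to -0.30). Alkbh5 was closest to 0 at 0.10 (0.08 to 0.13), with Ythdc2 at 0.17 (0.13 to 0.21) and Ythdc1 at 0.28 (0.23 to 0.34). At 1.5-fold, 2 genes were higher (Wtap and Ythdf3, against 27.6 % of all genes) and 1 lower (Fto, against 26.7 %), so 3 passed in either direction where 54.3 % of all genes did. None passed 4-fold, against 14.1 %. Counting intervals lay wholly above 0 for 6 genes and wholly below for 4, against 42.9 % and 42.3 % of all genes. The median over the 10 genes was 0.14 and over all genes 0.01.

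Over all genes, changes were narrower from GO1 to GO2 (quartiles -0.28 and 0.32) than from NGOs to FGOs (-0.64 and 0.67). The share of all genes with the smaller change in the second pair was not computed. Between GO1 and GO2 the difference was smaller in size for 9 of the 10 genes, the exception being Ythdc2. None reached 2-fold, against 9.73 % of 15748 genes (6.77 % higher and 2.96 % lower in GO2), and none reached 1.5-fold, against 23.8 % (14 % higher and 9.81 % lower), or 4-fold, against 1.75 %. Mettl14 had the largest at -0.46 (-0.52 to -0.40), which lay outside the quartiles of all genes (-0.28 and 0.32). Lower counts in GO2 were also found for Ythdc2 at -0.23 (-0.26 to -0.20), Ythdf1 at -0.20 (-0.25 to -0.16) and Ythdf2 at -0.20 (-0.22 to -0.17). The intervals of Mettl3, Ythdc1 and Fto included 0, and Ythdf3, Wtap and Alkbh5 lay between -0.04 and 0.07. The value of Ythdf3 turned to 0.0037 with RPKM as deposited. Intervals were wholly above 0 for 2 genes and wholly below for 5, against 34.2 % and 35.4 % of all genes. The median was -0.09 over the 10 genes and 0.01 over all genes. Both comparisons stand side by side in the plot of changes.

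**Figure D3:**
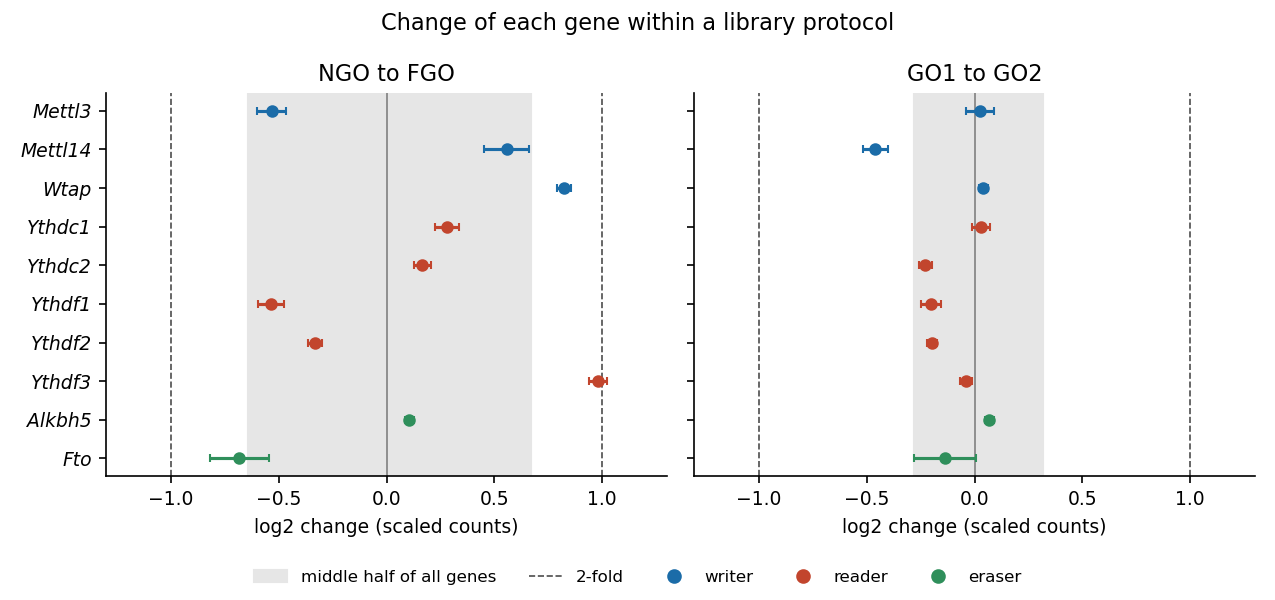
Log2 change (x axis, scaled recovered counts) of each m6A gene in FGOs over NGOs and in GO2 over GO1, 1 library per stage, with 95 % counting intervals, the quartiles of all genes in grey and dashed lines at 2-fold. The genes run from -0.68 (Fto) to 0.98 (Ythdf3) in the first pair and, in the second, from -0.46 (Mettl14) to 0.07 (Alkbh5).

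Ratios between genes of the same library do not depend on how libraries are scaled. The ratio of Mettl3 to Mettl14 RPKM was 4.54 (4.27 to 4.84) in NGOs against 2.13 (2.01 to 2.26) in FGOs, and 0.843 (0.803 to 0.884) in GO1 against 1.18 (1.14 to 1.22) in GO2. Its log2 change was -1.09 (-1.21 to -0.97) over the first pair and 0.48 (0.40 to 0.57) over the second. Both genes had their levels closest to each other in the ScriptSeq libraries.

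Ythdf2 over the sum of Ythdf1 and Ythdf3 was 1.33 (1.302 to 1.36) in NGOs against 0.834 (0.816 to 0.852) in FGOs, and 1.12 (1.099 to 1.14) in GO1 against 1.05 (1.03 to 1.06) in GO2. A pair of further ratios was chosen after the values were seen. Wtap over Mettl3 was 1.98 (1.91 to 2.05) in NGOs against 5.08 (4.89 to 5.27) in FGOs, and 5.78 (5.56 to 6.02) in GO1 against 5.85 (5.69 to 6.02) in GO2. The value was lowest in NGOs, for which only the comparison with FGOs lies within a protocol. Ythdf2 over Ythdf3 was 2.95 (2.87 to 3.03) in NGOs against 1.19 (1.16 to 1.22) in FGOs, and 1.84 (1.81 to 1.88) in GO1 against 1.65 (1.63 to 1.68) in GO2. These ratios are drawn in the plot of ratios by library.

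**Figure D4:**
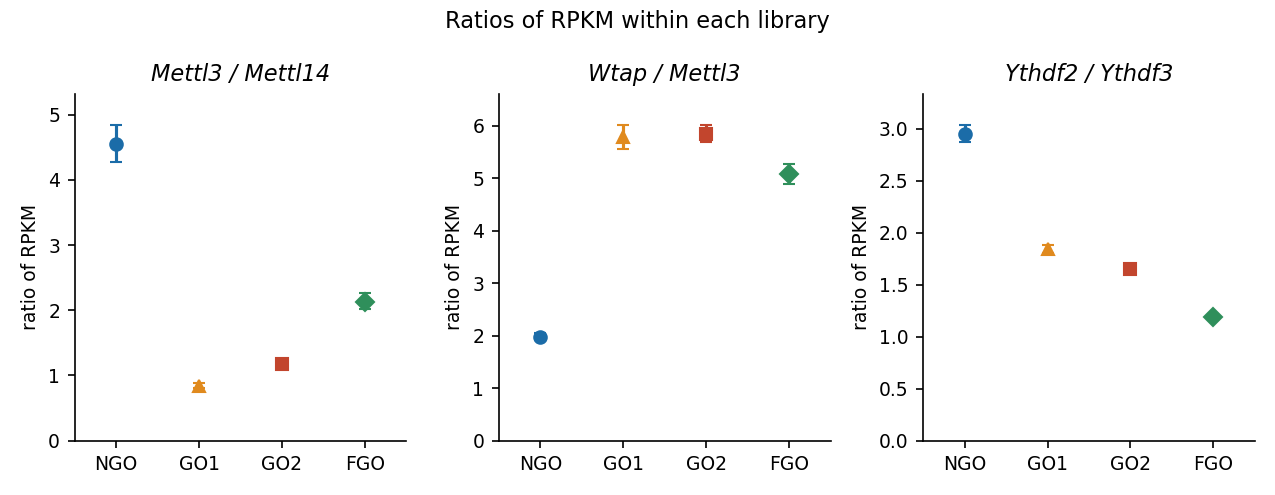
Ratio of RPKM (y axis, from 0) of Mettl3 to Mettl14, Wtap to Mettl3 and Ythdf2 to Ythdf3 in the NGO, GO1, GO2 and FGO libraries (x axis), 1 library per stage, with 95 % counting intervals. Mettl3 over Mettl14 is 4.54 in NGOs and 0.843 in GO1, Wtap over Mettl3 is 1.98 in NGOs and at least 5.08 elsewhere, and Ythdf2 over Ythdf3 runs from 2.95 to 1.19.

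The courses of the genes over the 4 libraries were compared as log2 profiles, scaled to NGOs and centred on their mean. The closest pairs among the 10 genes were Wtap and Ythdf3 (distance 0.18), Ythdf1 and Ythdf2 (0.20), and Ythdc1 and Ythdc2 (0.21). Mettl3 was closest to Fto (0.26), not to another writer. Among 10749 genes that reached 100 counts in each library, the nearest to Mettl14, the member with the widest range, were Setd1a (0.10), Cited2 (0.11) and Fcho2 (0.12), each also highest in GO1. Among the nearest to Alkbh5 were Trappc1 (0.016) and Sun1 (0.027). These distances are over 4 points that mix stage and protocol, and 521 genes lay within 0.25 of Alkbh5 and 54 within that of Mettl14.

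Beyond the 10 genes, a list of 33 others of the pathway was examined, of which 31 could be used. Meioc was not found under that name, and Rbm15b is listed 2 times and was left out. In FGOs over NGOs, 1 of the 31 was at least 2-fold higher (18 % of all genes) and 3 were at least 2-fold lower (16.5 %). In GO2 over GO1, none was higher (6.77 %) and 2 were lower (2.96 %). The median over the list was -0.09 in the first pair and -0.33 in the second, beside 0.01 over all genes in each.

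Among the partners of the writer complex, 1110037F02Rik, which encodes the scaffold VIRMA, was the only gene at least 2-fold higher in FGOs (18 % of all genes). It had 7.12 RPKM in NGOs against 14.7 in FGOs, and 10.3 in GO1 against 12.4 in GO2, with a log2 change of 1.12 (1.07 to 1.16) in the first pair. Zc3h13, which anchors the complex in the nucleus and was the highest of these partners in GO2, had 9.68 RPKM in NGOs against 10.9 in FGOs, and 18.8 in GO1 against 14.9 in GO2. In the first pair Rbm15, which recruits the complex to RNA, was at 0.78 (0.69 to 0.88) and Cbll1, for a ubiquitin ligase of the complex, at -0.23 (-0.35 to -0.12).

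None of 6 other methyltransferase genes passed 2-fold in either pair, against 34.5 % of all genes in the first and 9.73 % in the second. In the first pair the intervals of Mettl5 at -0.86 (-1.05 to -0.66) and Zcchc4 at 0.84 (0.66 to 1.01) included 2-fold. Trmt112, which encodes a partner that stabilises several methyltransferases, had the highest level of the 6 in GO2. It had 19.1 RPKM in NGOs against 14.8 in FGOs, and 18.3 in GO1 against 13.9 in GO2. The 3 genes for enzymes of the methyl donor cycle likewise stayed within 2-fold, and Mat2b, for a subunit of methionine adenosyltransferase, had 99.7 RPKM in NGOs against 116 in FGOs, and 86.6 in GO1 against 93.1 in GO2.

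Of 9 other m6A binding proteins, Rbmx was at least 2-fold lower in FGOs (16.5 % of all genes) and Hnrnpa2b1 in GO2 (2.96 %). Smaller decreases were found for other genes of the group, with a median of -0.05 in the first pair and -0.39 in the second. Rbmx, for a nuclear RNA-binding protein, had 1.01 RPKM in NGOs against 0.145 in FGOs, and 0.384 in GO1 against 0.207 in GO2, a log2 change of -2.72 (-3.07 to -2.37) in the first pair. Hnrnpa2b1, for a nuclear protein of the same broad class, had 18.1 RPKM in NGOs against 9.91 in FGOs, and 31.8 in GO1 against 15.8 in GO2, a change of -1.05 (-1.08 to -1.02) in the second. Igf2bp2, which encodes a reader that stabilises RNA, was highest of the group in GO2 and had 22.5 RPKM in NGOs against 21.6 in FGOs, and 50.1 in GO1 against 35.6 in GO2.

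Of 9 genes for partners of the YTH proteins, Rbm46 and Cnot1 were at least 2-fold lower in FGOs, as were 16.5 % of all genes. Rbm46 was also at least 2-fold lower in GO2, as were 2.96 % of all genes. Smaller decreases were found for other genes of the group, with a median of -0.34 in the first pair and -0.43 in the second. RBM46 is a germ cell protein that acts with YTHDC2 at meiotic entry, and its gene had 3.70 RPKM in NGOs against 0.117 in FGOs, and 0.498 in GO1 against 0.208 in GO2, the FGO value from 25 counts. It thus stood at -4.86 (-5.44 to -4.29) in the first pair and -1.29 (-1.69 to -0.89) in the second, whereas Ythdc2 itself was at 0.17 and -0.23. The interval of the second value includes 2-fold, and with 0.1 added to scaled RPKM it was -0.98, short of 2-fold. CNOT1 is the scaffold of the CCR4-NOT complex that YTHDF2 binds. Cnot1 had 31.1 RPKM in NGOs against 14.8 in FGOs, and 33.7 in GO1 against 25.7 in GO2, a change of -1.001 (-1.03 to -0.97) in the first pair whose interval includes the threshold, and which fell short of it with 0.1 added to scaled RPKM. Upf1, for a helicase of RNA decay, had the highest level of the group in GO2 and had 47.2 RPKM in NGOs against 57.6 in FGOs, and 31.5 in GO1 against 35.2 in GO2. The plot of the wider pathway gives all 31 genes.

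**Figure D5:**
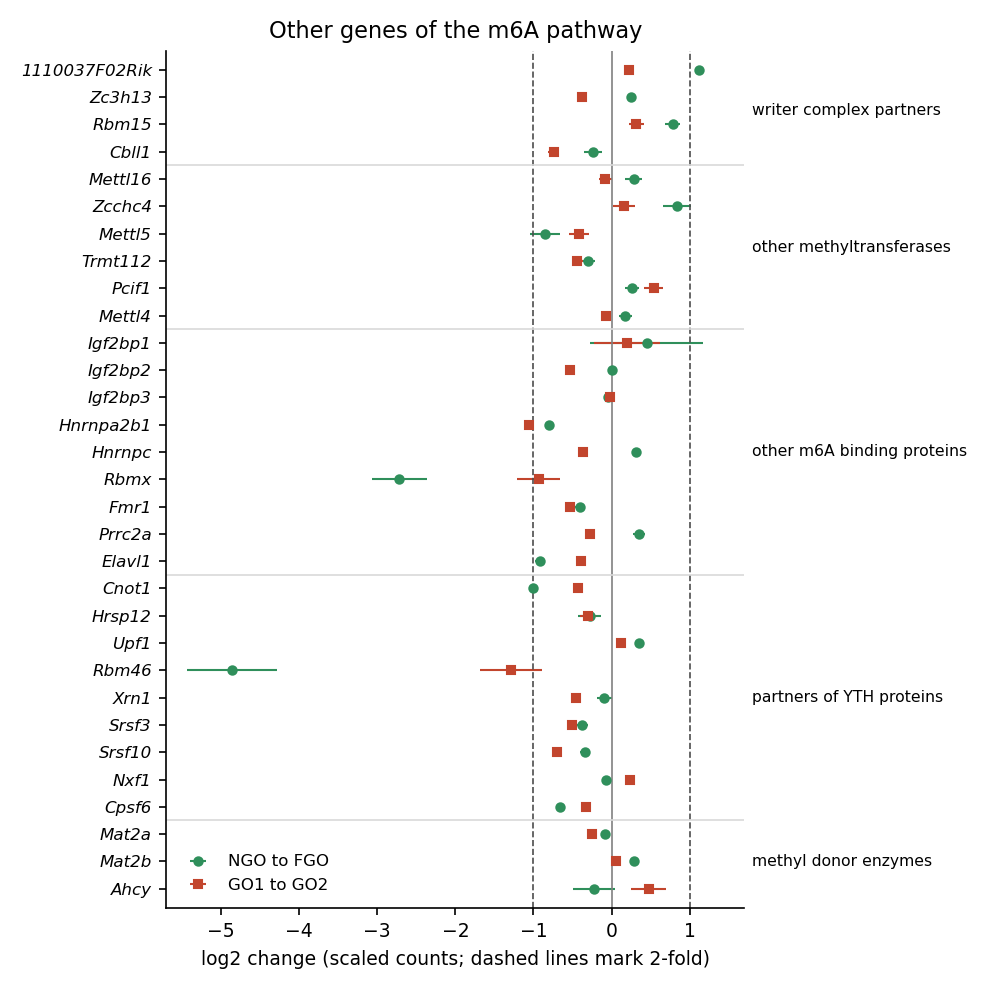
Log2 change (x axis, scaled recovered counts) of 31 other genes of the m6A pathway, grouped by role, in FGOs over NGOs and in GO2 over GO1, 1 library per stage, with 95 % counting intervals and dashed lines at 2-fold. Rbm46 at -4.86 and Rbmx at -2.72 lie farthest to the left, and 1110037F02Rik at 1.12 is the one gene past 2-fold to the right.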

How the data were processed

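RNA-Seq values of NGO, GO1, GO2 and FGO libraries, 1 per stage, were analysed. The authors deposited RPKM values on a linear scale for 25587 genes, made from reads trimmed with Trim Galore 0.2.8 and mapped to GRCm38 with TopHat2 2.0.9. The program, annotation and strand setting of the gene values, and the total used for scaling, are not given in the sources used here. Although the table is named for read counts, its values are not whole numbers. The table holds no per-sample column beyond the 4 libraries.

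For genes with 1 exon in GENCODE M21 (the annotation behind the deposited values may differ), a library total was fitted that made RPKM times length whole. It was then refined on genes whose GENCODE exon union gave nearly whole counts. In every library 99.5 % or more of the non-zero values of genes with 1 exon came out whole, within 0.0005 counts plus 2.5e-07 of the count. For other genes, the exon length was the GENCODE exon union, a GENCODE transcript length or otherwise the smallest length, that gave whole counts in all libraries. For 20 genes, none of them a member, no length fitted and the counts were rounded. Ythdf1, Ythdf2 and Alkbh5 took the exon union and the other 7 genes the smallest fitting length. Where that length is wrong, RPKM does not change, but the interval does. The totals, and the counts recovered on genes, were larger than the numbers of mapped reads that the study lists, for a reason that was not tested. The recovered counts thus cannot all be independent reads, and the intervals are too narrow by an unknown factor.

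Changes were computed in Python 3.11.15 (numpy 2.4.6, pandas 2.3.3, scipy 1.17.1) with 30 % of ratios and 5 % of mean expression trimmed at each end for scaling and a prior count of 1, for genes reaching 20 counts over both libraries. The scripts were tested on simulated data, in which the search for a fitting length recovered 92.8 % of 883 known lengths. The simulated lengths were all shorter than those fitted for Ythdc1 (10352 bases) and Fto (13026 bases), so recovery at such lengths was not tested. Plots were made with matplotlib 3.10.9. Other thresholds, scalings, prior counts and count minimums were tried. The 10 genes, the other lists and the marker lists were chosen with earlier results of these data known. Genes named in the text are the 10 members, those of the wider list past 2-fold or highest of their group in GO2, and the 3 nearest profiles of the widest ranging and of the highest member, of which 1 is not reported here. Other genes (Rbm15, Cbll1, Mettl5, Zcchc4, the marker genes, and genes that overlap or share sequence with a member) were named after their values were seen.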

Additional observations from a re-analysis of the deposited data

How the results depend on the processing

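With RPKM as deposited and no further scaling, the median log2 change of the 10 genes was 0.066 in place of 0.14 for FGOs over NGOs and -0.045 in place of -0.09 for GO2 over GO1, since the scaling itself shifts each pair by -0.07 and 0.04. Under that setting Ythdf3 was at 0.0037 in GO2 over GO1, against -0.04. No member passed 2-fold under any of the scalings, prior counts and count minimums tried. The share of all genes that did depended on the minimum. With at least 100 counts over both libraries, it was 29.8 % in FGOs over NGOs and 5.83 % in GO2 over GO1. A 1.5-fold threshold gave 3 members in FGOs over NGOs and, of the 31 genes of the wider list, 10 there and 5 in GO2 over GO1, where 54.3 % and 23.8 % of all genes passed. A 4-fold threshold left 2 and 0 genes of that list (14.1 % and 1.75 % of all genes). Adding 0.1 to scaled RPKM left 3 in FGOs over NGOs (25.5 % of all genes), without Cnot1, and 1 in GO2 over GO1 (3.07 % of all genes), without Rbm46. Members above the median numbered 8 to 10 per library under other sets of genes or without gene length, against 9. Dividing counts by 4 was chosen after seeing the data. No paired analysis was possible because each stage has 1 library. Without replicates, variation between oocyte collections is unknown and is not part of the counting intervals.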
